A study of Mus with 10 samples.

Results

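The heat shock proteins, the J-domain (DnaJ) co-chaperones, the heat shock factors and the BAG co-chaperones were examined in liver type 1 innate lymphoid cells (ILC1s) of mice with and without the receptor NKp46. Genes were taken by the start of their symbol (Hsp, Dnaja, Dnajb, Dnajc, Hsf or Bag), and those with at least 100 counts summed over the 10 libraries were kept. This left 67 of 86 genes matched by name, out of 24564 genes in the table, and all 67 were among the 11463 genes tested. RNA-seq had been performed on ILC1s sorted from the liver of C57BL/6 mice, with 5 libraries from Ncr1+/+ animals (W1 to W5) and 5 from Ncr1gfp/gfp animals (K1 to K5), all from mice of 6 to 8 weeks. In Ncr1gfp/gfp mice both copies of Ncr1, the gene of NKp46, carry a gfp reporter that disrupts it, in every cell type that uses this gene and not in ILC1s alone. Wild-type ILC1s were gated as lineage-negative NK1.1+NKp46+CD49b-CD49a+ cells and Ncr1gfp/gfp ILC1s by GFP in place of NKp46, so the gate differed between the genotypes. The sources do not state that each library came from 1 mouse, and the p-values below therefore measure the spread between these libraries, which may be partly technical.

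Heat shock proteins are molecular chaperones that bind unfolded or misfolded proteins. HSP70 proteins hold and release their clients in an ATP-driven cycle, in which J-domain proteins deliver the client and stimulate ATP hydrolysis and the HSP110 and BAG proteins exchange the nucleotide. HSP90 proteins act later on signalling kinases and receptors, HSP60 and HSP10 fold proteins inside mitochondria, and small HSPs keep aggregating proteins in solution. In cytosol the inducible members are switched on by heat shock factor 1 (HSF1) within minutes of heat or other protein damage, whereas the endoplasmic reticulum (ER) has its own set, switched on by the unfolded protein response. In lymphocytes the constitutive members are among the abundant transcripts because they serve protein folding at rest.

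Library totals ran from 15796253 to 22623133 counts. Ncr1, the targeted gene, was at 141 to 356 CPM (counts scaled to library size) in the Ncr1gfp/gfp libraries and at 1913 to 2144 CPM in the Ncr1+/+ libraries (log2 fold change -2.97, edgeR adjusted p = 2.64e-09). Of 8 ILC1 markers, all were detected and tested, and the 7 other than Ncr1 summed to 3973 to 4271 CPM in Ncr1gfp/gfp and to 3989 to 4251 CPM in Ncr1+/+ libraries. Among these 7, Itga1 (CD49a) rose (log2 fold change 0.32, edgeR adjusted p = 0.000481) and Il7r fell (log2 fold change -0.97, edgeR adjusted p = 0.00773). The T cell list, 5 tested markers and the untested Cd8b1, summed to 632 to 835 CPM in Ncr1gfp/gfp and 461 to 579 CPM in Ncr1+/+ libraries. Most of this sum came from Cd3g, at means of 687 and 501 CPM in Ncr1gfp/gfp and Ncr1+/+. Of the tested T cell markers, 3 rose (Cd3e, Cd3g and Cd8a). The NK cell list summed to 136 to 210 CPM against 98.8 to 120 CPM, and 1 of its 5 tested markers rose (Itgam). Macrophage and Kupffer cell markers summed to 12.2 to 53.8 CPM against 16.2 to 81.5 CPM, and Klra4, Lyve1, Hba-a1, Hba-a2, Hbb-b1 and Hbb-bs were at 0 in all libraries. The part of these differences in the results on chaperones was not tested, and in sorted bulk samples fewer cells of a type and less RNA per cell cannot be told apart. The column header of K5 carries a sample number outside the consecutive run of the other libraries, and what it marks is not given.

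Levels of different genes were compared as CPM per kilobase of exon, averaged over the 10 libraries. The cytosolic HSP90 gene Hsp90ab1 was the most abundant member at 368 CPM per kilobase. It was followed by Hspa5, the HSP70 of the ER (BiP), at 325 and by Hsp90b1, the HSP90 of the ER (GRP94), at 316 CPM per kilobase. These 3 stood well above the next gene, Hspa8, the constitutive cytosolic HSP70, at 129 CPM per kilobase. Dnajc15, a J-domain protein of the mitochondrial inner membrane, came next at 93.4, and Dnajb1, the main J-domain partner of cytosolic HSP70, at 86.1 CPM per kilobase. Bag1, Dnajc3, Dnajc8, Dnajc7, Dnajc5, Bag6, Hsp90aa1 and Hspa1b lay between 52.9 and 66.3 CPM per kilobase. The order of neighbours in this range was not fixed, because the libraries of Hspa1b spanned more than the whole range. Hspd1 (HSP60) and Hspe1 (HSP10), which form 1 complex, had nearly equal levels of 14.2 and 14.04 CPM per kilobase. Reads that map to more than 1 position were not counted. Levels of genes that share sequence with others, as do Hspa1a and Hspa1b, may therefore be understated. How far this shifts the levels compared here was not tested. The lowest members were Bag3 at 0.803, Hspa12b at 0.680 and Dnajc6 at 0.0972 CPM per kilobase.

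**Figure D1:**
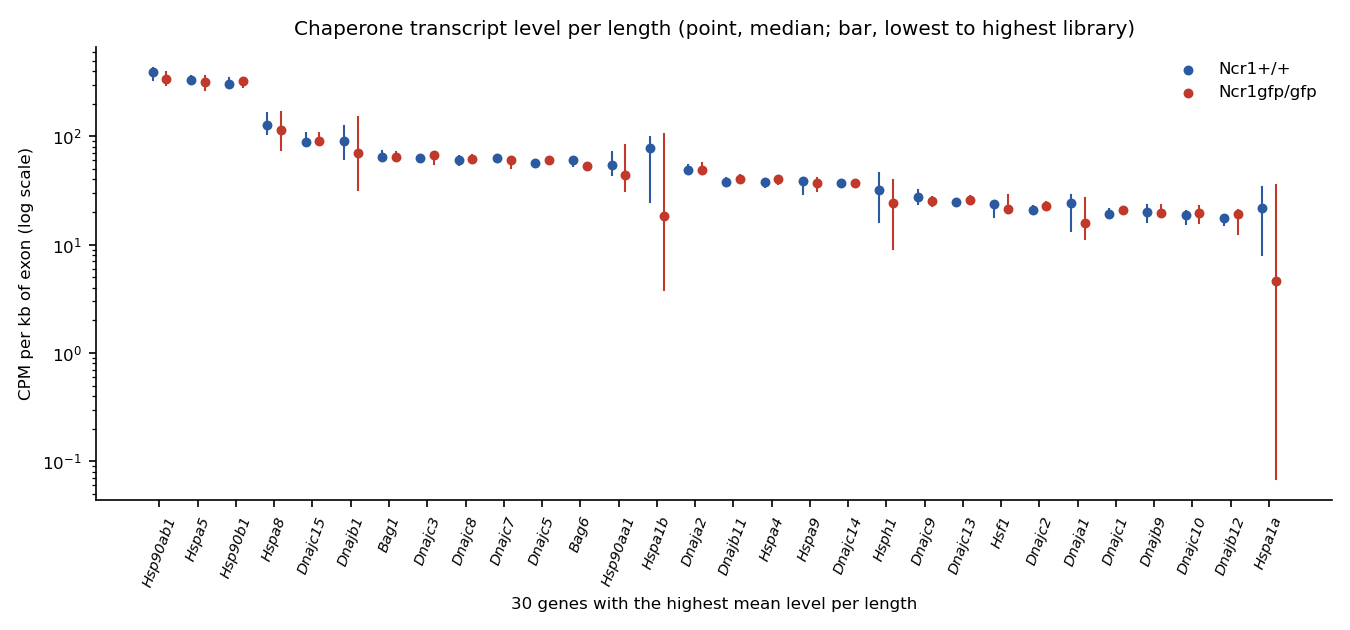
Level per length (CPM per kilobase of exon, log scale) of the 30 genes with the highest mean level, for Ncr1+/+ (blue) and Ncr1gfp/gfp (red) libraries; points are medians and bars run from the lowest to the highest of 5 libraries. Hsp90ab1, Hspa5 and Hsp90b1 lie highest with short bars, and Hspa1b and Hspa1a have the longest bars.

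The 19 genes matched by name that fell below the limit were at or near background. No count was found in any library for 8 of them (Dnajb7, Dnajb8, Dnajc5b, Dnajc5g, Dnajc22, Hsf3, Hspb2 and Hspb3), where 3 counts, the upper limit that a count of 0 allows, correspond to 0.132 to 0.1905 CPM. The classical small HSP Hspb1 (HSP25 in the mouse) had 8 counts in all and Hspb8, which works with BAG3, had 4. Just outside the limit were Dnajc28 with 92, Bag2 with 43 and Hspa1l with 36 summed counts. Just inside it were Dnajc6 with 106, Hspb11 with 243 and Hspb6 with 371 summed counts.

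The comparison of the genotypes asked whether loss of NKp46 was accompanied by other levels of these transcripts. None of the 67 members passed the study's thresholds in edgeR's quasi-likelihood test (adjusted p under 0.05 with a fold change above 1.5 or below 0.7), which 0.733% of all tested genes passed. None had an adjusted p under 0.05 at any fold, which 1.35% of all tested genes had, and DESeq2, the edgeR likelihood ratio test and limma-voom gave a count of 0 on both criteria as well. At an unadjusted p under 0.05 the quasi-likelihood test gave 5 members (7.46%), against 11.4% of all tested genes, and the other tools gave 6, 4 and 8 members in the same order, or 8.96%, 5.97% and 11.9%, against 12.3%, 11.5% and 13% of all tested genes. Of these 5, 4 had the lower level in Ncr1gfp/gfp (5.97%, against 5.91% of all tested genes) and 1 the higher (1.49%, against 5.46%). In no member were the CPM of the genotypes free of overlap, while 3.11% of all tested genes had none. The median log2 fold change was -0.0023 over the members and 0.0027 over all genes tested, and 34 of 67 members (50.7%) were below 0, against 49.3% of all genes.

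These data were precise enough to bound many of the differences. For 46 of the 67 members (68.7%) the 95% interval of the fold change lay within 0.7 to 1.5, as it did for 68.5% of all tested genes. For the remaining 21 members (31.3%, against 31.5% of all tested genes) a fold of 1.5 or of 0.7 lay inside the interval, and the interval does not exclude a difference of that size. On the log2 scale the interval was widest for Dnajc6 (fold 0.0938 to 1.41), Hspb11 (0.316 to 1.89) and Hspa1a (0.203 to 1.12). It was narrow for Hsp90b1, at 0.955 to 1.12, and for Dnajc14, at 0.905 to 1.06.

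**Figure D2:**
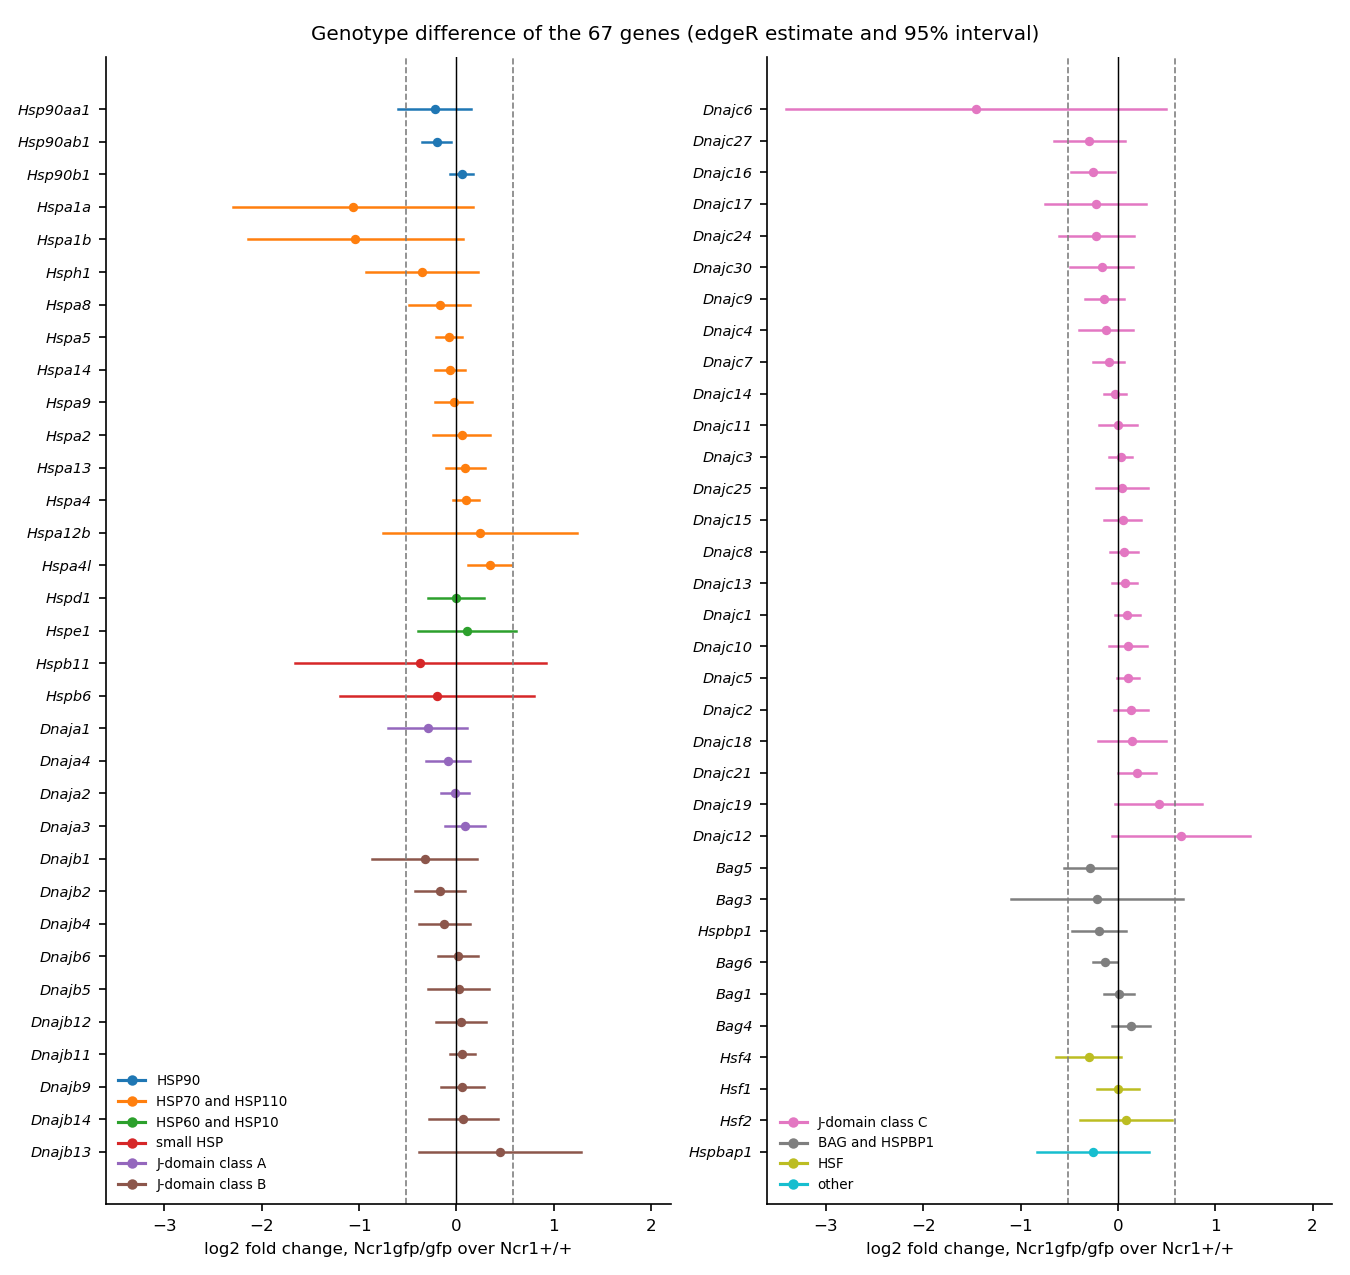
Log2 fold change of each of the 67 genes, Ncr1gfp/gfp over Ncr1+/+ (points), with its 95% interval (lines) from edgeR, coloured by role; dashed lines mark folds of 0.7 and 1.5. Estimates run from -1.46 (Dnajc6) to 0.65 (Dnajc12), and the intervals of Hspa1a, Hspa1b and Dnajc6 are among the widest.

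Hsf1, which encodes the activator of the heat shock response, had the same mean in both genotypes. It was at 50.9, 74.5, 52.3, 56.8 and 55.8 CPM in K1 to K5 and at 47.0, 60.8, 62.0, 58.9 and 61.6 CPM in W1 to W5. K2 was the highest and W1 the lowest library, and the genotypes overlapped throughout. The fold was 1.00 with a 95% interval of 0.861 to 1.16 (edgeR adjusted p = 0.999). Hsf4, best known from the lens, was lower on average in Ncr1gfp/gfp, at 12.5 ± 2.73 against 15.4 ± 2.31 CPM (SD, n = 5 each), and did not pass the test (log2 fold change -0.30, edgeR adjusted p = 0.511). Hsf2 had a log2 fold change of 0.08, and its fold interval reached from 0.766 to 1.47.

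The inducible cytosolic HSP70 genes Hspa1a and Hspa1b differed more from library to library than between the genotypes. Both lie on chromosome 17, Hspa1b at 35093374 to 35096183 and Hspa1a at 35106304 to 35109101 on the minus strand, in the coordinates of the deposited table, whose build is not named. Hspa1b was at 10.6, 103, 23.3, 298 and 51.3 CPM in K1 to K5 and at 205, 220, 278, 228 and 68.9 CPM in W1 to W5. The knockout library K4 was the highest of all 10, the other 4 knockout libraries lay below W1 to W4, and W5 fell among the knockout libraries. Within Ncr1gfp/gfp the highest library exceeded the lowest by 28.1-fold, and within Ncr1+/+ by 4.03-fold. Group means were 97.3 ± 118 CPM in Ncr1gfp/gfp and 200 ± 78.1 CPM in Ncr1+/+ (SD, n = 5 each). The estimate of 0.487-fold (95% interval 0.227 to 1.05) did not pass the test (log2 fold change -1.04, SE 0.53, edgeR adjusted p = 0.478), and the two-sided exact permutation test over libraries gave p = 0.167, where 0.00794 is the smallest p it allows.

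Hspa1a had 3, 588, 226, 1686 and 218 counts in K1 to K5 and 1056, 1391, 1903, 1588 and 416 counts in W1 to W5. Thus K1 held almost no count of Hspa1a, although it held 167 counts of Hspa1b, and the order of all 10 libraries was the same for both genes. The log2 fold change of Hspa1a was -1.07 (SE 0.59, edgeR adjusted p = 0.527). The coding sequences of Hspa1a and Hspa1b are nearly identical and reads that map to both were not counted, so how counts divide between them is uncertain. Counted as 1 gene, an alternative chosen after seeing the data, they gave 0.484-fold (95% interval 0.222 to 1.05, edgeR adjusted p = 0.486). The call depended on 1 library. Without K4, the log2 fold change was -2.26 for Hspa1a (edgeR adjusted p = 0.0300) and -2.07 for Hspa1b (edgeR adjusted p = 0.0187), both past the thresholds. Without K1 it was -0.75 for each gene.

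The partners of HSP70 in the cytosol had a similar order of libraries with a smaller range. Dnajb1, the J-domain protein induced together with HSP70, was at 104, 250, 163, 491 and 224 CPM in K1 to K5 and at 292, 284, 400, 372 and 199.9 CPM in W1 to W5. K4 was again the highest library and K1 the lowest, and the log2 fold change of -0.33 did not pass the test (SE 0.26, edgeR adjusted p = 0.725). Hsph1, the HSP110 that exchanges the nucleotide of HSP70, was at 32.2, 133, 64.6, 140 and 84.9 CPM in K1 to K5 and at 112, 161, 140, 111 and 57.03 CPM in W1 to W5. Its lowest libraries were K1, W5 and K3, and the genotypes overlapped (log2 fold change -0.35, edgeR adjusted p = 0.717). Dnaja1, a J-domain protein of the cytosol whose gene overlaps Gm6297 on the opposite strand, ranged from 40.9 to 97.1 CPM in Ncr1gfp/gfp and from 47.8 to 103 CPM in Ncr1+/+ libraries (log2 fold change -0.30, edgeR adjusted p = 0.629). Hspa8, although it is made constitutively, was at 156, 299, 228, 354 and 239 CPM in K1 to K5 and at 260, 270, 343, 345 and 221 CPM in W1 to W5. Its lowest library was K1 and its highest K4, as for Hspa1b (log2 fold change -0.17, edgeR adjusted p = 0.760).

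**Figure D3:**
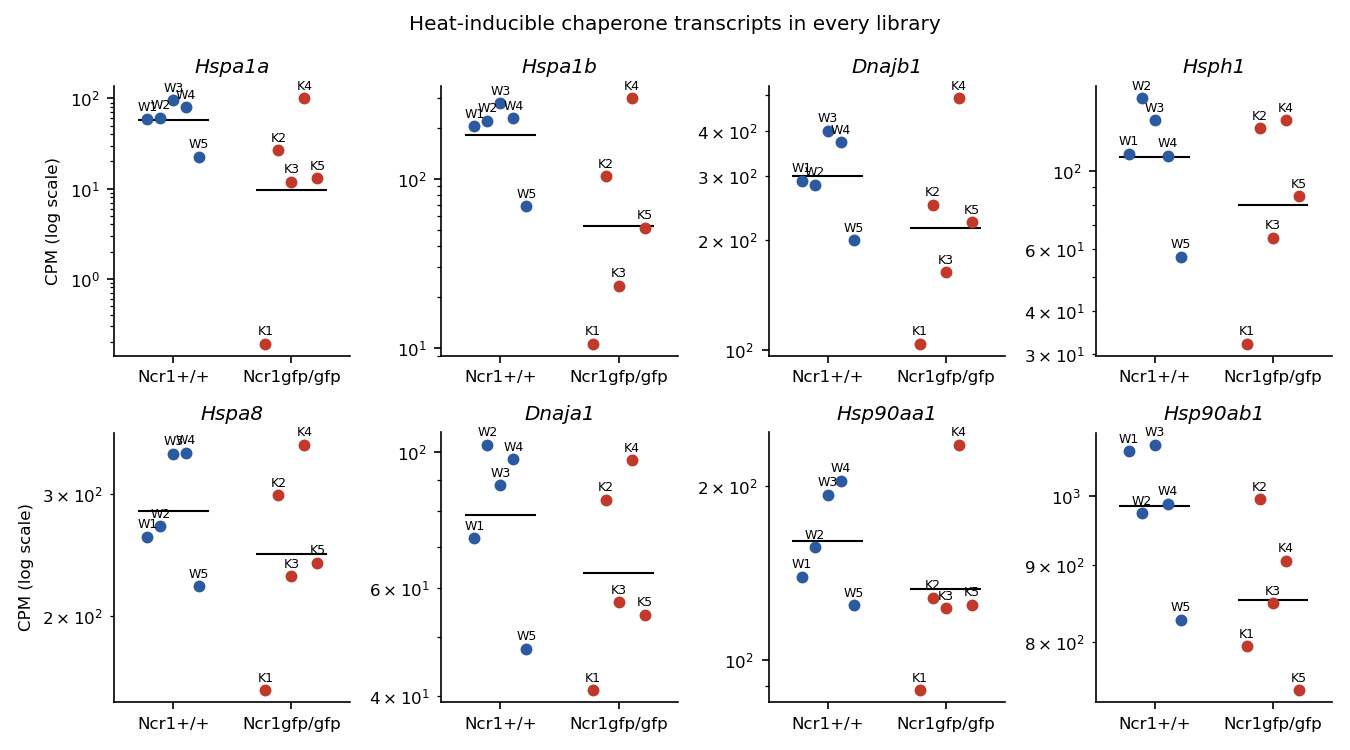
CPM (log scale, each panel with its own range) of 8 genes of the heat-inducible list in every library. Hspa8 and Hsp90ab1 are in the list although they are made constitutively. Points are single libraries, W1 to W5 for Ncr1+/+ (blue) and K1 to K5 for Ncr1gfp/gfp (red), and black bars are geometric means. K1 is the lowest library in 7 of the 8 panels and K4 the highest in 5, and K1, K3, K5 and W5 hold the 4 lowest values in each.

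Of the HSP90 genes, the cytosolic pair had lower and the ER member higher mean levels in Ncr1gfp/gfp, none past the adjusted threshold. Hsp90ab1, the constitutive cytosolic HSP90, was at 795, 995, 849, 906 and 743 CPM in K1 to K5 and at 1072, 975, 1082, 989 and 828 CPM in W1 to W5. K2, K3 and K4 lay inside the Ncr1+/+ range, while W1 and W3 lay above every knockout library. The fold of 0.867 (95% interval 0.780 to 0.964) had an unadjusted p of 0.0110 and an adjusted p of 0.225 in edgeR. For Hsp90ab1 the two-sided exact permutation p was 0.0873. Hsp90aa1, the inducible cytosolic HSP90, was at 88.6, 128, 123, 235 and 125 CPM in K1 to K5 and at 139, 156, 193, 204 and 124 CPM in W1 to W5. Here K4 stood above every other library and K1 below, and the log2 fold change was -0.22 (SE 0.18, edgeR adjusted p = 0.729). Without K4 it was -0.49 (edgeR adjusted p = 0.0753). Hsp90b1 had 886 ± 66.5 CPM in Ncr1gfp/gfp and 855 ± 59.8 CPM in Ncr1+/+ (SD, n = 5 each), and its log2 fold change was 0.05.

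Across the whole table, several heat-inducible chaperones were among the genes that varied most between libraries of the same genotype. The pooled within-genotype SD divided by the mean (coefficient of variation) was computed for the 6747 tested genes with a mean of at least 20 CPM, 45 of them members. Hspa1a ranked 2 with 72.9% and Hspa1b ranked 3 with 67.3%. Dnajb1 ranked 12 (42.7%), Hsph1 13 (41.1%), Dnaja1 22 (30.5%), Hsp90aa1 23 (30.5%) and Hspa8 66 (24.2%). With Dnajc18, a J-domain gene outside the heat-inducible list that ranked 45 (25.6%), 8 members were among the 68 genes of the top 1%. Hspd1 followed at rank 165 (20.1%), and 9 members were among the 338 genes of the top 5%. Other genes of the heat-inducible list varied less, with Dnajb4 at rank 717 (15.0%), Hsp90ab1 at 2300 (10.8%) and Hspa4l at 3082 (9.54%). The median was 10.1% over the 45 members and 9.09% over all 6747 genes. The 22 members with a lower mean level were not ranked. Dnajc14 was among the steadiest genes of the table, at rank 6702 with 2.92%. These ranks are a description and carry no test.

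**Figure D4:**
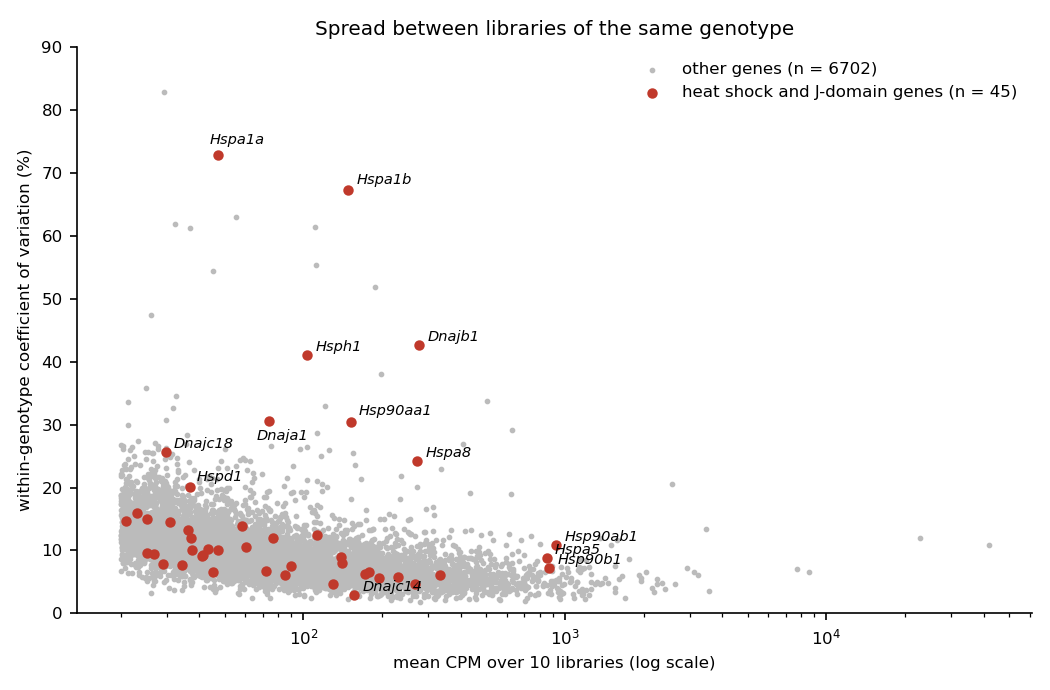
Within-genotype coefficient of variation (%) against mean CPM over 10 libraries (log scale) for 6747 genes with a mean of at least 20 CPM; red points are the 45 heat shock, J-domain, BAG and HSF genes and grey points the other 6702. Hspa1a, Hspa1b, Dnajb1 and Hsph1 lie far above the bulk, and Hsp90ab1, Hspa5 and Hsp90b1, at a higher level, lie within it.

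The variable genes moved together. Of the 11 heat-inducible members with a mean of at least 20 CPM, 7 were lowest in K1 and 6 highest in K4, and in 8 the libraries K1, K3, K5 and W5 held the 4 lowest values. Over the 10 libraries, log2(CPM + 1) of Hspa1b was correlated with that of the other 10 genes, with permutation p-values adjusted over these 10 relations. For Dnajb1, Pearson's r was 0.96 and Spearman's rho 0.98 (adjusted permutation p = 5e-05 and 1e-04), and r was 0.88 without K1 and K3, the libraries farthest from the median of Hspa1b. Hsph1 (r = 0.90, rho = 0.82), Hspa8 (0.89 and 0.92), Dnaja1 (0.88 and 0.83) and Hsp90aa1 (0.88 and 0.98) had adjusted permutation p-values of at most 0.0019 for r and at most 0.0095 for rho. Without K1 and K3 their r was 0.75 to 0.85. After subtraction of each genotype's mean, r over the 10 libraries was 0.97 for Dnajb1 and 0.88 to 0.93 for these 4 genes. The relation therefore did not rest on the difference between the genotype means. Each of these is 1 pooled value without a p, in which the wider range of Hspa1b in Ncr1gfp/gfp weighs more. It does not show the relation in each genotype. Groups of 5 libraries are too few for a correlation of their own.

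The relation was weaker or not detected for other genes of the heat-inducible list. It held by r for Hsp90ab1 (0.75, adjusted permutation p = 0.0181) but not by rho (0.66, adjusted permutation p = 0.0559). For Hspd1, r was 0.68 and rho 0.70 (adjusted permutation p = 0.0352 and 0.0433). Dnajb4, a J-domain gene close to Dnajb1 in sequence, did not pass (r = 0.63, rho = 0.44, adjusted permutation p = 0.0610 and 0.229), and neither did Hspa4l (r = -0.35, rho = -0.31, adjusted permutation p = 0.329 and 0.388). Hspa1a, which shares sequence with Hspa1b, had r = 0.96 and rho = 1.00 (adjusted permutation p = 5e-05 and 1e-04). All these values come from the same libraries and share their depth and scaling.

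Summed over the 13 tested heat-inducible members, the level was 1318, 2131, 1609, 2750 and 1627 CPM in K1 to K5 and 2301, 2338, 2718, 2527 and 1660 CPM in W1 to W5. K4 reached the level of W3, while W5 was as low as K3 and K5, and the highest library exceeded the lowest by 2.09-fold. The list includes Hsp90ab1 and Hspa8, called constitutive above. Hsp90ab1 had means of 858 and 989 CPM and Hspa8 of 255 and 288 CPM in Ncr1gfp/gfp and Ncr1+/+. The summed means were 1887 and 2309 CPM, so much of the sum came from Hsp90ab1 and Hspa8. None of the 13 members passed the adjusted test. Of the 13, 11 had a log2 fold change below 0, against 49.3% of all tested genes, and the median of the 13 was -0.22 against 0.0027 over all tested genes. Many of these members moved together over the same libraries, so their signs are not separate observations. No test was made of this count. The 7 members induced by ER stress (Hspa5, Hsp90b1, Dnajb9, Dnajb11, Dnajc3, Dnajc10 and Hspa13) summed to 2144 to 2498 CPM, with the highest library 1.17-fold above the lowest. The mitochondrial list, 9 tested members and the untested Dnajc28, shares Hspd1 and Hspe1 with the heat-inducible list. It summed to 315 to 370 CPM, again a range of 1.17-fold. Neither sum was low in K1 or high in K4 to the extent seen for the heat-inducible sum.

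The immediate early genes, which are switched on within minutes by many stimuli, were set beside these sums. They summed to 2815, 2885, 2727, 3101 and 2604 CPM in K1 to K5 and to 4809, 4279, 3309, 3668 and 2465 CPM in W1 to W5. The pooled within-genotype coefficient of variation of this sum was 19.9%, beside 23.3% for the heat-inducible sum, but the genotype with the larger spread differed. The SD of the immediate early sum was 186 CPM in Ncr1gfp/gfp and 900 CPM in Ncr1+/+ (n = 5 each). That of the heat-inducible sum was 564 CPM in Ncr1gfp/gfp and 399 CPM in Ncr1+/+ (n = 5 each). Among wild-type libraries W5 was the lowest in both sums, but W1 was the highest for immediate early genes and W3 for heat-inducible members. Of the 16 immediate early genes tested, 3 fell at an adjusted p under 0.05 (Fos, Junb and Zfp36) and none rose, where 1.35% of all tested genes passed in either direction. The part of this difference in the levels of the heat shock genes was not tested.

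**Figure D5:**
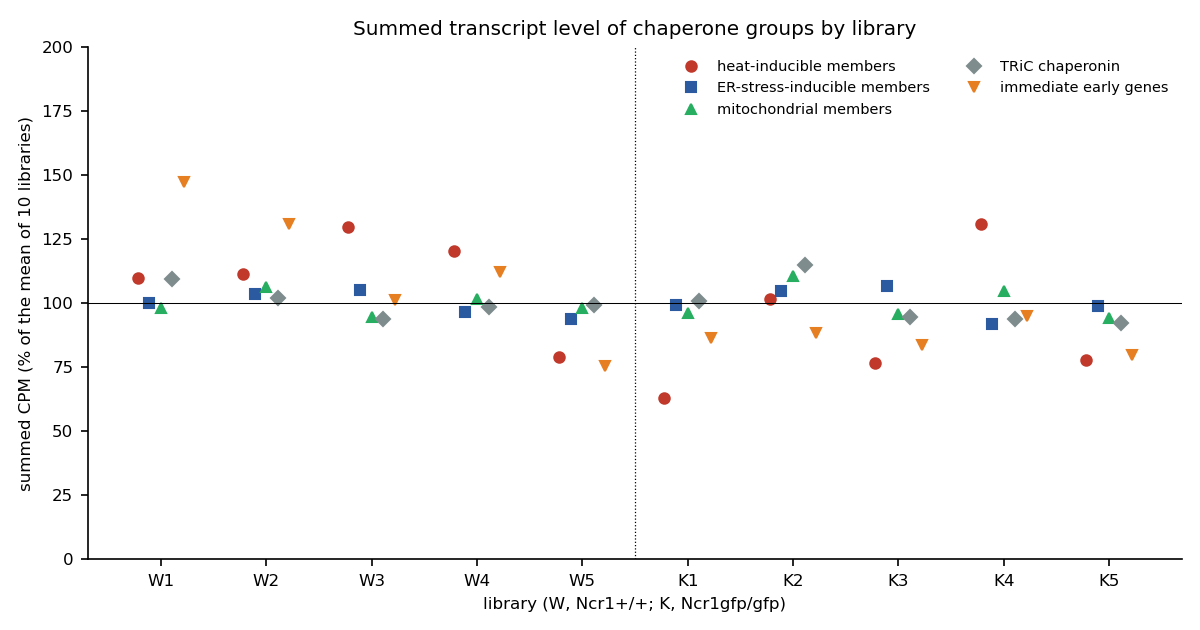
Summed CPM of 3 groups of members, of the TRiC chaperonin and of the immediate early genes in each library, as a percentage of the group's mean over 10 libraries. W marks Ncr1+/+ and K Ncr1gfp/gfp, and the mitochondrial group includes Dnajc28, which fell below the count limit. The heat-inducible sum runs from 62.8% in K1 to 131% in K4, the ER-stress-inducible sum stays between 91.6% and 107%, and the immediate early genes reach 147% in W1.

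Chaperones of the ER were steady as a sum, while single genes differed in spread. The within-genotype coefficient of variation of the 7 ER-stress-inducible members ran from 4.65% for Dnajb11 to 12.0% for Dnajb9. The median over all ranked genes was 9.09%. Hspa5 was at 784, 941, 894, 704 and 822 CPM in K1 to K5 and at 902, 938, 865, 860 and 803 CPM in W1 to W5. K4, the highest library for the heat-inducible genes, was the lowest for Hspa5, and the genotypes overlapped. Its log2 fold change was -0.08 (SE 0.06, edgeR adjusted p = 0.752). Dnajb11, a J-domain partner of BiP in the ER, was at 132 ± 6.24 CPM in Ncr1gfp/gfp and 127 ± 5.80 CPM in Ncr1+/+ (SD, n = 5 each), and its gene overlaps Gm30505, which had no count. Dnajc3, a BiP partner that also restrains the eIF2 alpha kinases, was at 337 ± 25.5 and 330 ± 13.9 CPM (SD, n = 5 each). Of the 7 ER-stress-inducible members, 6 had a log2 fold change above 0, all at most 0.10, and the median was 0.06.

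The mitochondrial chaperones differed little in mean level between the genotypes, but Hspd1 and Hspe1 varied between libraries. Hspd1 was at 36.9 ± 9.04 CPM in Ncr1gfp/gfp and at 36.9 ± 5.26 CPM in Ncr1+/+ (SD, n = 5 each), a fold of 0.998 with a 95% interval of 0.819 to 1.22. Hspe1 had a log2 fold change of 0.11 (edgeR adjusted p = 0.929) and ranged from 5.97 CPM in K1 to 17.3 CPM in K4. Hspd1 and Hspe1 lie head to head on chromosome 1 on opposite strands and overlap between 55144992 and 55145087 in the table's coordinates, and their counts there cannot be assigned by strand. Hspa9, the HSP70 of the mitochondrial matrix, had 112 ± 14.1 and 114 ± 13.96 CPM (SD, n = 5 each). Dnajc15 and Dnajc19 encode J-domain proteins of the inner-membrane import motor. Dnajc15 had a log2 fold change of 0.05, and Dnajc19 one of 0.42 with 7.72 ± 1.33 against 5.77 ± 1.22 CPM (SD, n = 5 each). Dnajc19 did not pass the adjusted test (edgeR adjusted p = 0.481, two-sided exact permutation p = 0.0476 unadjusted). Its gene overlaps Fxr1 on the opposite strand, which held 15453 counts against 1280 for Dnajc19, so part of its counts may belong to Fxr1.

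The only member with an unadjusted p under 0.05 and a higher level in Ncr1gfp/gfp was Hspa4l, an HSP110-type gene. It was at 27.6, 32.5, 23.5, 27.9 and 29.4 CPM in K1 to K5 and at 21.6, 21.4, 22.8, 21.7 and 23.6 CPM in W1 to W5. The libraries overlapped only in that K3 lay just below W5. The fold was 1.27 (95% interval 1.09 to 1.48), with an unadjusted p of 0.00428 and an adjusted p of 0.138 in edgeR, the smallest adjusted p of the 67 members, and a two-sided exact permutation p of 0.0159. Its relative Hspa4 had a log2 fold change of 0.10 and a fold interval of 0.976 to 1.17. Thus among the HSP70 and HSP110 genes, 7 of 12 had a log2 fold change below 0 and 5 above, with a median of -0.05.

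For most J-domain genes the estimated difference between the genotypes was small. In spread, some lay above the median coefficient of variation of 9.09% for all ranked genes, as did Dnajb12 (14.5%) and Dnaja4 (13.2%). Others lay below it, as did Dnajc14 (2.92%). The log2 fold change was below 0 for 3 of 4 class A genes, 3 of 10 class B genes and 10 of 24 class C genes, with medians of -0.05, 0.04 and 0.04. Dnaja2, the most abundant class A gene, was at 140 ± 12.8 and 142 ± 9.67 CPM (SD, n = 5 each). Dnajc16, a class C gene of the ER membrane, was at 19.9, 23.9, 24.8, 29.4 and 24.2 CPM in K1 to K5 and at 27.9, 28.0, 30.8, 30.3 and 29.0 CPM in W1 to W5. K4 alone among the knockout libraries lay inside the Ncr1+/+ range. The fold was 0.837 (95% interval 0.716 to 0.979), with an unadjusted p of 0.0282 and an adjusted p of 0.345 in edgeR. For Dnajc16 the two-sided exact permutation p was 0.0317, unadjusted. The abundant class C genes Dnajc5, a co-chaperone of secretory vesicles, Dnajc13, of endosomes, and Dnajc1, of the ER membrane, had log2 fold changes of 0.10, 0.07 and 0.10. Dnajc1 overlaps Mllt10 and Dnajc14 overlaps Ormdl2 on the opposite strand, which held 22171 and 2203 counts, and reads there cannot be assigned by strand. Dnajc14 was at 149 to 161 CPM in Ncr1gfp/gfp and at 154 to 164 CPM in Ncr1+/+ libraries. Dnajc2 and Hspa14, whose products form a complex at the ribosome, had log2 fold changes of 0.14 and -0.07, and neither passed the test (edgeR adjusted p = 0.579 and 0.826). Dnajc21, which serves ribosome assembly, was at 34.5 to 39.7 CPM in Ncr1gfp/gfp and at 28.7 to 35.2 CPM in Ncr1+/+ libraries (log2 fold change 0.20, edgeR adjusted p = 0.446). The highest estimate was that of Dnajc12, at 2.79 to 8.27 CPM against 1.91 to 4.37 CPM, with a fold interval of 0.959 to 2.56 (edgeR adjusted p = 0.496).

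Dnajc6, the clathrin-uncoating auxilin, was listed at 0 in K1, K2 and K4, at 0.106 CPM in K3 and at 1.37 CPM in K5, and at 0.392 to 1.19 CPM in W1 to W5. K5 was the highest of all libraries, and without it Dnajc6 passed the thresholds (edgeR adjusted p = 0.0359, against 0.616 with it), and this gene was singled out after its values were seen. These levels rest on 106 counts over all libraries.

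BAG proteins release clients from HSP70 and link it to degradation. Bag6, which guards membrane proteins before their insertion and is the most abundant of its group per length after Bag1, was at 208, 214, 229, 232 and 217 CPM in K1 to K5 and at 247, 235, 246, 259 and 217 CPM in W1 to W5. W5 lay inside the Ncr1gfp/gfp range and the other 4 wild-type libraries above it. The fold of 0.913 (95% interval 0.839 to 0.994) had an unadjusted p of 0.0374 and an adjusted p of 0.387 in edgeR. For Bag6 the two-sided exact permutation p was 0.0397, unadjusted. Bag5 was at 20.9 ± 1.58 CPM in Ncr1gfp/gfp and 25.5 ± 4.98 CPM in Ncr1+/+ (SD, n = 5 each), with W1 the highest library at 32.8 CPM (unadjusted p = 0.0369 and adjusted p = 0.384 in edgeR). For Bag5 the two-sided exact permutation p was 0.0873. Bag1 had equal means of 89.8 ± 6.18 and 89.1 ± 7.12 CPM (SD, n = 5 each). Bag3, itself a strong HSF1 target in many cells, stayed at 1.00 to 3.48 CPM. K4, which was high for Hspa1b, was the lowest knockout library for Bag3 at 1.37 CPM. Of the 5 tested BAG genes and Hspbp1, 4 had a log2 fold change below 0 and the median was -0.16.

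The small HSPs were close to absent. Hspb6 had 1.87 ± 0.863 CPM in Ncr1gfp/gfp and 2.14 ± 0.677 CPM in Ncr1+/+ (SD, n = 5 each). Hspb11, which is named as a small HSP but encodes a subunit of the intraflagellar transport machinery, had 1.11 ± 0.673 and 1.44 ± 0.967 CPM (SD, n = 5 each). Hspbap1, named for its binding to HSPB1, had 5.95 ± 1.94 and 7.10 ± 2.63 CPM (SD, n = 5 each), and HSPB1's own transcript was below the count limit. None of these 3 genes passed the test, and their fold intervals ran from 0.435 to 1.74, from 0.316 to 1.89 and from 0.562 to 1.25.

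In the wider chaperone network, no gene passed the adjusted edgeR test in either direction among the 8 subunits of the cytosolic chaperonin TRiC, the 21 HSP90 co-chaperones, the 24 genes of ER folding and the unfolded protein response, the 7 prefoldin genes and the 8 mitochondrial folding genes and proteases. At an unadjusted p under 0.05 in edgeR these lists held 0, 4, 2, 0 and 0 genes, where 11.4% of all tested genes passed. TRiC summed to 960 to 1196 CPM per library and the ER folding list to 3875 to 4461 CPM. Single genes could still vary between libraries, as did Stip1, which joins HSP70 to HSP90 and had a within-genotype coefficient of variation of 23.4% (rank 74 of 6747). The lowest adjusted p in these lists was that of Ern1, the ER stress sensor IRE1 alpha (log2 fold change -0.34, edgeR adjusted p = 0.0538). Of 14 other known HSF1 targets outside the family, Chordc1, Ahsa1, Stip1, Fkbp4 and Tcp1 are also in the HSP90 co-chaperone or TRiC lists. Of these 14 targets, 12 were tested and none passed, with 6 above and 6 below 0. At an unadjusted p under 0.05 there were 2 of the 12, against 11.4% of all tested genes. The lowest adjusted p among them was that of Ppp1r15a, a phosphatase subunit that is also an immediate early gene (log2 fold change -0.60, edgeR adjusted p = 0.0501). Stip1, Ern1 and Ppp1r15a were singled out after their values were seen. The targets not tested were Serpinh1 and Cryab, both near 0.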

How the data were processed

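Libraries were made with SMART-Seq v4 from 2 ng of total RNA of sorted ILC1s and read in 51 single-read cycles. The authors trimmed reads (Trimmomatic 0.38, FASTP 0.19.4), mapped them to mm10 with STAR (020201) and deposited raw counts per gene from HTSeq 0.6.0 at default settings, in 1 table with 1 column per library. Reads with more than 1 mapping position are not counted by HTSeq, and the kit does not mark strand, so reads of a gene and of an antisense partner cannot be told apart. The table's coordinates are not those of mm10 and its annotation is not named. No columns of other samples were present.

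Counts were scaled by TMM and tested with edgeR 4.0.16 (R 4.3.3) after its filter on low counts, by the quasi-likelihood test with Benjamini-Hochberg adjustment over 11463 genes and genotype as the only term. CPM are TMM-scaled. Single values were also compared by two-sided exact permutation over the 10 libraries, and relations by 100000 permutations. Alternatives were DESeq2 1.42.0, limma 3.58.1 (voom with sample quality weights), other scalings and filters, a replicate block, and each library left out. The edgeR procedure was tested on simulated data. Replicates were compared in 20 same-genotype pairs, whose counts differed by a chi-square of 9.04 to 23.1 per gene, above sampling noise, so all were counted as separate libraries. The members and gene lists were chosen with earlier results of these data known. The 28 members given a full account had an adjusted or unadjusted p under 0.05, were among the 2 most abundant per length or the most changed (mean CPM of 5 or more) of their role, or belonged to 13 well-known heat shock genes. Other members are named as examples. Library depth limits low genes, since 3 counts equal 0.132 to 0.1905 CPM, and this limit covers counting error only.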

Additional observations from a re-analysis of the deposited data

Results flagged for a closer look

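For each named member and each summed marker or gene list, the highest and lowest library of each genotype were compared with the nearest other library of that genotype. In 10 of 98 groups the gap exceeded 0.71 of the group's range, where chance gives about 5% of groups, or 4.9 here. This share is only a rough guide. The groups are not independent, since many members moved together over the same libraries, and some sums hold values of 0.

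Among the members, K4 was high for Hsp90aa1, at 235 CPM with the next knockout library at 128 CPM, and for Hspa1a, at 100.3 CPM with the next at 26.9 CPM. K1 was low for Dnajc3, at 291 CPM with the next knockout library at 345 CPM. K2 was high for Hsf1, at 74.5 CPM with the next knockout library at 56.8 CPM, and low for Hspb6, at 0.366 CPM with the next at 2.03 CPM. W1 was low for Hsf1, at 47.0 CPM with the next wild-type library at 58.9 CPM.

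Among the marker sums, the hepatocyte list reached 177 CPM in W1 with the next wild-type library at 146 CPM. K3 of Ncr1gfp/gfp was higher, at 202 CPM, but was not flagged by this rule. Most of the hepatocyte sum came from Trf, at means of 135 and 138 CPM in Ncr1gfp/gfp and Ncr1+/+. Alb was at 9.37 and 7.48 CPM. The erythroid list, which rests on Alas2 alone because the globin genes were at 0, reached 9.14 CPM in W5 with the next wild-type library at 1.85 CPM. The neutrophil list reached 10.2 CPM in K3 with the next knockout library at 1.21 CPM. It was 0.168 CPM in W1 and 0 in the other 4 wild-type libraries.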

How the results depend on the processing

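The number of members past the thresholds and the number at an adjusted p under 0.05 were 0 under every alternative test, scaling and filter run, and ranged from 0 to 2 when 1 library was left out, for both counts. Without K4 the 2 genes were Hspa1a and Hspa1b, and without K5 the 1 gene was Dnajc6. Replicate numbers did not pair the libraries (correlations of same-numbered deviations from -0.03 to 0.06). Only 2 of 10 libraries correlated best with the library of their own number. With a replicate block 0 members passed and 12 (17.9%) had an unadjusted p under 0.05, against 11.2% of all genes tested in that fit, where without the block it was 5 (7.46%) against 11.4%. At an adjusted p under 0.05, all genes tested gave 315 with DESeq2, 264 with the edgeR likelihood ratio test and 264 with no filter on low counts, against 155.

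Of 502 values of single genes under alternatives, 472 kept their sign and their side of the threshold, 28 changed sign and 2 came to pass it. The changes of sign concerned 6 genes. Leaving out single libraries gave ranges of -0.022 to 0.048 for Bag1, -0.067 to 0.016 for Dnaja2, -0.11 to 0.044 for Hsf1, -0.35 to 0.070 for Hspb6, -0.15 to 0.054 for Hspd1 and -0.10 to 0.26 for Hspe1. Hspd1 turned to 0.0012 with DESeq2 and to 0.00090 with median-of-ratios scaling. Hsf1 turned to -0.00096 with upper-quartile scaling, -0.00020 with no filter on low counts, -0.00033 with at least 10 counts in every library and -0.0062 with the replicate block. With limma-voom, Bag1 turned to -0.0087, Hsf1 to -0.067 and Hspe1 to -0.061. The causes were not tested. The estimates of Hspa1a and Hspa1b depended on single libraries, from -2.26 to -0.75 and from -2.07 to -0.75. They also depended on the method. With limma-voom they were -2.22 and -1.74 (limma-voom adjusted p = 0.134 and 0.0807), against -1.07 and -1.04 in the main fit. With the replicate block they were -1.73 and -1.64 (edgeR adjusted p = 0.167 and 0.146). That of Dnajb1 ranged from -0.74 without K4 to -0.14 without K1.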
